A study of Mus musculus with 48 samples.

Results

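AP-1 is a family of transcription factors that bind DNA as pairs of basic leucine zipper proteins. The genes described here are *Fos*, *Fosb*, *Fosl1*, *Fosl2*, *Jun*, *Junb*, *Jund*, and *Atf3*, which were chosen by symbol as the 8 classical subunit genes among the 24264 transcripts of the count table, and all 8 passed the filter on low counts that left 15630 genes to test. FOS proteins pair only with partners such as the JUN proteins, whereas JUN proteins also pair with each other, and ATF3 joins JUN proteins or itself. Several of the genes are immediate early genes, which serum, growth factors, and stress induce within minutes through kinases and factors that are already present. AP-1 is abundant in cultured fibroblasts, where it binds many enhancers, and fibroblast enhancers of this kind are silenced when cells are reprogrammed.

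The RNA came from mouse cells during reprogramming with MKOS or OKMS, reprogramming cassettes induced by doxycycline whose names give the order of *Myc*, *Klf4*, *Oct4*, and *Sox2* on the shared transcript. The 48 libraries cover 20 conditions. WT MEFs (embryonic fibroblasts without a cassette), MKOS MEFs, and OKMS MEFs had 2 libraries each. The cassette MEFs came from chimeric mid-gestation embryos made with TNG ESCs that carry GFP in the *Nanog* locus and the cassette in the *Sp3* locus, so that they can hold cells without it, and the share of such cells in the sequenced MEFs is not given. Whether the cassette MEFs were treated with doxycycline before RNA was taken is not given either. The labels list LIF in the medium of MEFs and ESCs, and the methods list FGF2 and heparin for MEFs. The sorted populations had 3 libraries each and were cultured with doxycycline and vitamin C for 10 or 15 days per the culture protocol, whereas the series' design text gives day 10, after dilution of the cassette MEFs with WT MEFs. All were CD44-. The gate called 2 was ICAM1- and the gate called 3 was ICAM1+, NG- or NG+ is the absence or presence of *Nanog*-GFP, and E-CAD is the epithelial surface protein E-cadherin. Both cassettes gave E-CAD+ cells of the gates 2NG-, 3NG-, and 3NG+, whereas OKMS also gave E-CAD- cells of the gates 2NG- and 3NG-. The reference cells had 2 libraries each and were MKOS and OKMS iPSC clones without doxycycline or in 2i medium (inhibitors of MEK and GSK3), the iPSC line D6, and the ESC lines E14, TNG with no cassette, and TNG with either cassette. Neither the labels nor the methods say whether libraries of a condition came from separate cultures, so the p-values measure the spread between these libraries. The methods describe trypsin and antibody staining before sorting. They do not say whether MEFs, iPSCs, and ESCs went through the same steps, and the part of handling in the AP-1 values was not tested.

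Levels are given as CPM, the reads of a gene scaled to the reads on all transcripts of the library (counts per 1000000). Reads were taken from the 5′ end of each transcript, and libraries held 1429717 to 14174725 of them, so that 3 reads corresponded to 0.212 to 2.10 CPM. Over all libraries *Fos* had 15471 reads, *Fosb* 8635, *Jun* 7388, *Fosl2* 6052, *Jund* 4646, *Junb* 3099, *Atf3* 1749, and *Fosl1* 1152, so that *Fosl1* and *Atf3* were the least precisely measured. Of the *Jund* reads 76.3% had a single position in the genome, against 73.9% of the reads on all transcripts. The other AP-1 genes stood at 99.986% or more. The values of *Jund* are uncertain for that reason. The summed level of 5 leukocyte and macrophage markers (*Ptprc*, *Tyrobp*, *Fcer1g*, *Lyz2*, and *Cd68*) was 243 to 277 CPM in WT MEFs, 18.2 to 134 in cassette MEFs, 62.6 to 1931 in the NG- populations of MKOS and of OKMS E-CAD- cells, 23.8 to 380 in OKMS E-CAD+ NG- cells, 41.8 to 914 in 3NG+ cells, and 4.36 to 11.9 in ESCs. *Lyz2* alone reached 1739 CPM whereas *Ptprc*, which marks leukocytes, stayed between 0 and 2.83 in all libraries. In bulk RNA, fewer cells that express a gene and less RNA per cell cannot be told apart, and the part of these other cells in the AP-1 values was not tested.

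The sequence before the start of 4 of the genes is shown because reads begin at the 5′ end of transcripts, next to this sequence. *Fos*, *Fosb*, *Jun*, and *Atf3* are textbook targets of signal-regulated factors, and the sites by which CREB/ATF and AP-1 proteins bind are variants of 1 core. Each line holds the 140 bases before the first base of the gene, from the RefSeq annotation of GRCm38.p6, 5′ to 3′ on the strand of the gene. Capitals mark TGACG, the CRE core, or CGTCA, its reverse complement, and in *Jun* the AP-1 like octamer TGACATCA.
Fos, chr12:85473750-85473889, plus strand: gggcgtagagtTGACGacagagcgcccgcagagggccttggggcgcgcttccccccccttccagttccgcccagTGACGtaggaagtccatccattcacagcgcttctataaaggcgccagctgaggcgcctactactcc
Fosb, chr7:19310046-19310185, minus strand: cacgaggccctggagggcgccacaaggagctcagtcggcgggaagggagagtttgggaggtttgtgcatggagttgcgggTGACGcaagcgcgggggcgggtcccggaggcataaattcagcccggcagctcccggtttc
Jun, chr4:95052223-95052362, minus strand: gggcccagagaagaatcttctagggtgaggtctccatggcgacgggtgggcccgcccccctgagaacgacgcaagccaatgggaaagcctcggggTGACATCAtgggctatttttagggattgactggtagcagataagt
Atf3, chr1:191183334-191183473, minus strand: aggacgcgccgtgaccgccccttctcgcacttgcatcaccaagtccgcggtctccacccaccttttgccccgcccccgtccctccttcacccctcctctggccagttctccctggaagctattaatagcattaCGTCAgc

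On either strand of the 300 bases from 250 before to 50 after the start, TGACG was found in 4 of the 7 AP-1 genes with a promoter in the table (*Fos*, *Fosb*, *Junb*, and *Atf3*), and in 20.8% of all 32851 promoters. *Fos* held it at -129 to -125 and again at -66 to -62, counted from the first base of the gene as 0. The octamer TGACATCA was found in *Jun* alone, at -45 to -38, and in 3.62% of all promoters. Neither TGAGTCA, the classical AP-1 site, nor TGACGTCA, the full palindrome that also contains TGACG, was found in these windows, against 5.2% and 1.79% of all promoters. TATAAA was found in *Fos* at -33 to -28, in *Junb* at 0 to 5, which are the first bases of the gene, and in 13.6% of all promoters. These are matches of letters and no measurement of binding.

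*Fos*, the founding subunit and a rapid serum response gene, stood at 28.4 and 31.0 CPM in WT MEFs, 261 and 148 in MKOS MEFs, and 47.9 and 80.3 in OKMS MEFs. All 4 cassette MEF libraries were above both WT MEF libraries. The MKOS NG- populations held 71.7 to 136 CPM (median 89.95, 6 libraries), the OKMS E-CAD- NG- populations 15.4 to 151 (median 53.8), and the OKMS E-CAD+ NG- populations 21.99 to 77.2 (median 62.1). Most NG- libraries thus reached the lower OKMS MEF library for *Fos*, and every MKOS NG- library lay above the WT MEFs. The 3NG+ cells held 29.4, 11.7, and 33.3 CPM in MKOS and 21.1, 34.3, and 20.3 in OKMS. The 10 iPSC libraries held 0.527 to 28.8 CPM (median 9.11) and the 8 ESC libraries 2.35 to 15.4 (median 3.47). Among 19 steps between neighbors in the order of the condition means, only that from MKOS MEFs (205 ± 79.7, SD, n = 2) to MKOS 2NG- cells (104 ± 28.3, n = 3) exceeded the larger SD of the pair. The highest OKMS E-CAD- values of *Fos*, *Fosb*, and *Jun* came from replicate 3 of the 2NG- and of the 3NG- population.

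*Fosb*, a close relative of *Fos* with the same kind of rapid induction, had the largest ratio of mean level between cassette and WT MEFs (37.2). It stood at 4.08 and 7.85 CPM in WT MEFs, 301 and 314 in MKOS MEFs, and 112 and 161 in OKMS MEFs. The 3 MEF genotypes did not overlap. NG- cells held 13.3 to 29.1 CPM in MKOS (median 16.1), 4.81 to 47.9 in OKMS E-CAD- (median 11.9), and 6.99 to 16.4 in OKMS E-CAD+ populations (median 12.9), below every cassette MEF library and, in all MKOS libraries, above both WT MEF libraries. The 3NG+ cells held 4.0, 0.198, and 4.62 CPM in MKOS and 2.27, 3.50, and 5.87 in OKMS. The iPSCs reached 2.89 CPM (median 1.27) and the ESCs 1.74 (median 0.111), with 0 reads in 1 iPSC and 3 ESC libraries.

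*Fosl1*, which encodes FRA1, and *Fosl2*, which encodes FRA2, are the more slowly induced FOS relatives that lack the strong activation domain of *Fos*. *Fosl1* stood at 8.0 and 7.49 CPM in WT MEFs, 22.7 and 24.4 in MKOS MEFs, and 14.5 and 34.4 in OKMS MEFs, and it fell to at most 5.48 in the 18 NG- libraries (median 2.31), 4 of which had 0 reads. Its 3NG+ levels were 1.26, 0, and 0.719 CPM in MKOS and 0.126 (a single read), 0, and 0 in OKMS. *Fosl1* had 0 reads in 11 of the 18 iPSC and ESC libraries. *Fosl2* stood at 94.9 and 76.1 CPM in WT MEFs, 104 and 140 in MKOS MEFs, and 81.1 and 144 in OKMS MEFs, so that the genotypes overlapped. The 18 NG- libraries held 1.83 to 17.5 CPM of *Fosl2* (median 6.12), far below all 6 MEF libraries, and its 3NG+ levels were 9.04, 0.79, and 2.16 in MKOS and 0.252, 0.699, and 0.429 in OKMS. The iPSC and ESC libraries held 0 to 3.30 CPM (median 0.362). Of the FOS genes, *Fosl2* had the smallest mean ratio of cassette to WT MEFs, at 1.37, and the largest ratio of cassette MEFs to E-CAD+ NG- cells, at 16.9, whereas these ratios were 4.52 and 1.76 for *Fos*.

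*Jun*, the subunit with the broadest choice of partners, stood at 47.2 and 45.3 CPM in WT MEFs, 112 and 138 in MKOS MEFs, and 82.8 and 95.3 in OKMS MEFs. As for *Fosb*, the 3 genotypes did not overlap. NG- cells held 11.5 to 29.1 CPM in MKOS (median 19.1), 13.05 to 61.5 in OKMS E-CAD- (median 18.6), and 19.6 to 45.0 in OKMS E-CAD+ populations (median 27.1). With the exception of OKMS E-CAD- 3NG- replicate 3, all were below the WT MEFs. The 3NG+ cells held 4.42, 4.35, and 3.29 CPM in MKOS and 5.04, 12.6, and 4.29 in OKMS, within the 0.265 to 13.4 of the 18 iPSC and ESC libraries (median 3.15). *Junb*, an immediate early JUN gene that can also restrain *Jun*, stood at 15.6 and 17.5 CPM in WT MEFs, 51.4 and 88.8 in MKOS MEFs, and 34.5 and 47.3 in OKMS MEFs. It was 2.45 to 14.5 CPM in the 18 NG- libraries (median 7.25), below every MEF library. In 3NG+ cells it was 6.52, 2.37, and 3.91 CPM in MKOS and 3.03, 5.60, and 2.72 in OKMS, and the ESCs held 1.49 to 4.53 (median 3.44). The 4 libraries of iPSCs in 2i medium were at the lower end of the order of *Junb*, at 0.176 to 0.878 CPM, although 1 library without doxycycline stood at 0.713 and 1 of D6 at 0.83.

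*Jund*, the JUN gene that many cells express steadily, differed least. It stood at 10.1 and 11.5 CPM in WT MEFs, 29.3 and 44.1 in MKOS MEFs, and 13.4 and 40.0 in OKMS MEFs. The NG- populations held 7.77 to 27.8 CPM (median 14.7), the 3NG+ cells 3.29 to 11.99 (median 8.16), and the iPSCs and ESCs 3.45 to 30.0 (median 9.06). No step between neighbors in its order of condition means exceeded the larger SD of the pair. Each class of cells overlapped with some other class. All libraries of cassette MEFs and MKOS NG- cells (15.4 to 27.8 CPM) nonetheless lay above those of WT MEFs and 3NG+ cells. *Atf3*, a stress-induced gene whose protein can repress as a pair with itself, stood at 2.26 and 0.183 CPM in WT MEFs, 53.5 and 60.3 in MKOS MEFs, and 28.95 and 25.8 in OKMS MEFs. Outside the cassette MEFs no library exceeded the 8.50 CPM of MKOS 3NG- replicate 2. The 18 NG- libraries held 0 to 8.50 CPM (median 2.52), the 3NG+ cells 0 to 6.31 (median 0.341), and the iPSCs and ESCs 0 to 7.35 (median 0.749).

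The order of the conditions differed among the genes in its upper part, and most neighbors in it did not differ beyond their spread. MKOS MEFs came first for all genes except *Fosl1*, where OKMS MEFs did. For *Fos*, OKMS MEFs ranked only 6, below MKOS NG- and OKMS 3NG- cells, whereas for the other genes the cassette MEFs held both top places. WT MEFs followed directly for *Fosl1*, *Fosl2*, *Jun*, and *Junb*, whereas all 6 NG- populations lay above them for *Fos* and *Fosb*. For *Fosb*, MKOS MEFs (308 ± 8.63 CPM, SD, n = 2) exceeded OKMS MEFs (136.5 ± 35.3, n = 2) and these exceeded OKMS E-CAD- 3NG- cells (23.9 ± 20.8, n = 3) by more than the larger SD of the pair. OKMS E-CAD+ 2NG- cells (8.82 ± 2.70) also exceeded WT MEFs (5.96 ± 2.67) by that measure, although their libraries overlapped. For *Jun* the steps from MKOS (125 ± 18.5) to OKMS (89.0 ± 8.84) to WT MEFs (46.2 ± 1.33) and from TNG to E14 ESCs were larger than the SD, and for *Junb* those from MKOS (70.1 ± 26.5) to OKMS (40.9 ± 9.03) to WT MEFs (16.6 ± 1.35) and on to OKMS E-CAD- 3NG- cells. For *Fosl2* it was only the step from WT MEFs (85.5 ± 13.3) to OKMS E-CAD+ 3NG- cells (9.71 ± 7.12), and for *Fosl1* those from MKOS (23.5 ± 1.16) to WT MEFs (7.74 ± 0.363) and to MKOS 3NG- cells. For *Atf3* the steps from MKOS (56.9 ± 4.75) to OKMS MEFs (27.4 ± 2.25) and to MKOS 3NG- cells were large, and smaller ones followed below OKMS E-CAD- 2NG- and OKMS 3NG+ cells. Conditions with 0 reads were 5 for *Fosl1*, 1 for *Fosb* (TNG OKMS ESCs), and 1 for *Atf3* (TNG ESCs).

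**Figure D1:**
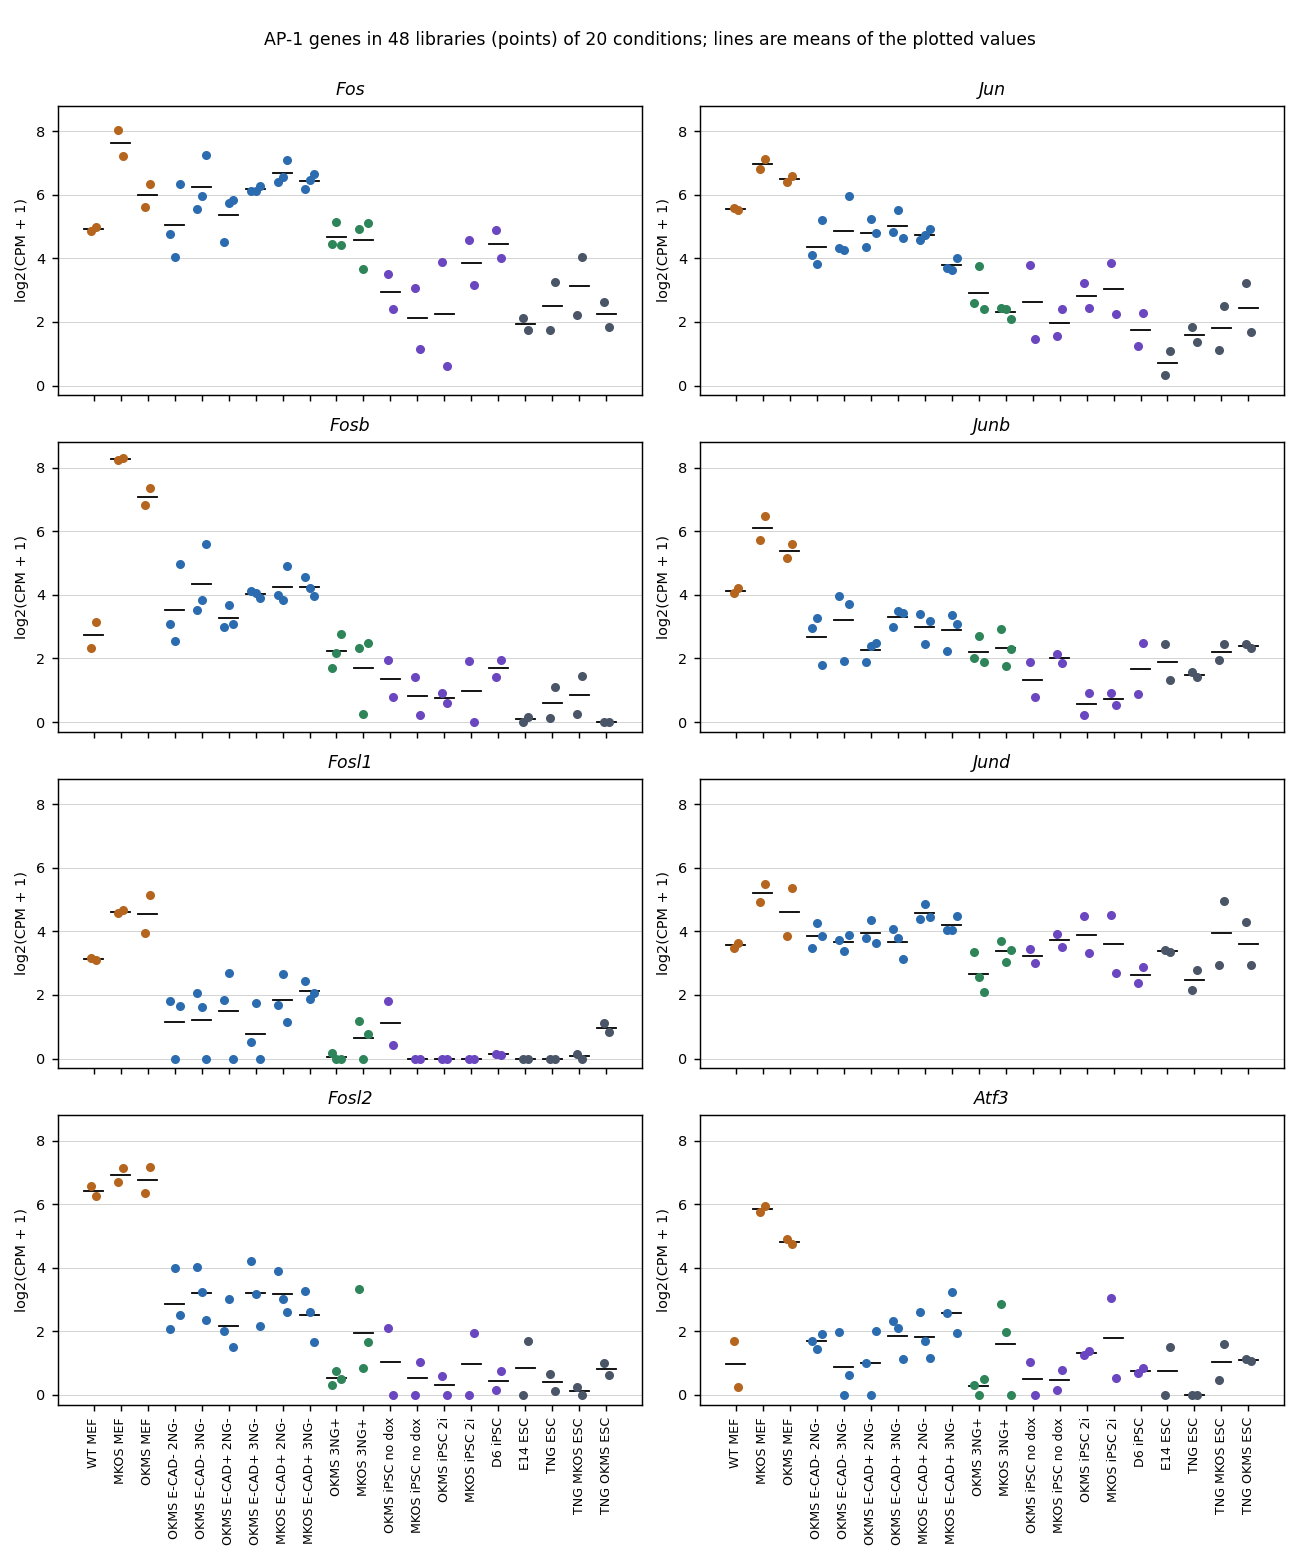
Levels of the 8 AP-1 genes in the 48 libraries, as log2(CPM + 1) on the vertical axis against the 20 conditions, with a point per library and a line at the mean of the plotted values. Orange points are MEFs, blue NG- cells, green 3NG+ cells, purple iPSCs, and gray ESCs. The blue points lie near the MEFs for *Fos*, between cassette MEFs and ESCs for *Fosb* and *Jun*, and close to the other cells for *Atf3*.

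The first comparison asks how AP-1 differs between the cells at either end of reprogramming, ESCs (4 lines) and MEFs (3 genotypes). In edgeR's quasi-likelihood test, all 8 genes were lower in ESCs at an adjusted p of at most 0.05, where 30.4% of the genes tested were lower. The median log2 change of the 8 genes was -5.12, against 0 over all genes tested. *Jun* fell by 5.22 ± 0.39 on the log2 scale (SE, adjusted p = 7.26e-15), *Fos* by 3.91 ± 0.42 (adjusted p = 1.32e-10), *Junb* by 3.55 ± 0.38 (adjusted p = 1.67e-10), and *Jund* by 1.13 ± 0.30 (adjusted p = 0.00119). For *Fosb*, *Fosl1*, *Fosl2*, and *Atf3*, which had 0 reads in some ESC libraries, the ratios of mean CPM in MEFs to ESCs were 364, 72.9, 183, and 34.8. With WT MEFs alone as the fibroblasts, 6 of the 8 genes were called, where 26.0% of genes were lower in ESCs. The calls lost were *Jund*, at -0.15 ± 0.44 (adjusted p = 0.84), and *Atf3*, at -1.76 ± 1.03 (adjusted p = 0.164).

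The MEFs of the 3 genotypes were not alike in AP-1, and this comparison was added after the levels had been seen. All 8 fitted differences of cassette MEFs minus WT MEFs were above 0, with a median of 1.60 on the log2 scale against 0 over all genes. One gene, *Fosb*, passed the test (5.07 ± 0.85, adjusted p = 0.000471), where 0.250% of genes were higher in cassette MEFs. Without WT MEF replicate 1 this call was lost (4.58, adjusted p = 0.0727). *Atf3* differed by 4.90 ± 1.40 (adjusted p = 0.11), *Fos* by 1.91 ± 0.67 (adjusted p = 0.265), *Jund* by 1.46 ± 0.51 (adjusted p = 0.265), *Junb* by 1.63 ± 0.62 (adjusted p = 0.349), and *Jun* by 1.15 ± 0.56 (adjusted p = 0.604). A difference of *Fosl1* (1.57 ± 1.25) or *Fosl2* (0.40 ± 0.80) was not detectable. When the 6 MEF libraries were fitted alone, so that only their own spread entered, 7 genes were called, all but *Fosl2*. That fit called 374 of all 12567 genes tested in either direction, against 112 of 15630 in the main fit. The MKOS MEFs were above the OKMS MEFs in all 8 fitted values (median 0.68), *Fos* by 1.78 ± 0.72 (adjusted p = 0.607), but 0 of the 8 genes passed the test between the cassettes, where 0.102% of genes did. DESeq2's Wald test called 0 as well, and 1 gene had an unadjusted p under 0.05. In a fit of the compared libraries alone 2 (*Fos* and *Fosb*) passed, where 360 of all 12078 genes did.

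**Figure D2:**
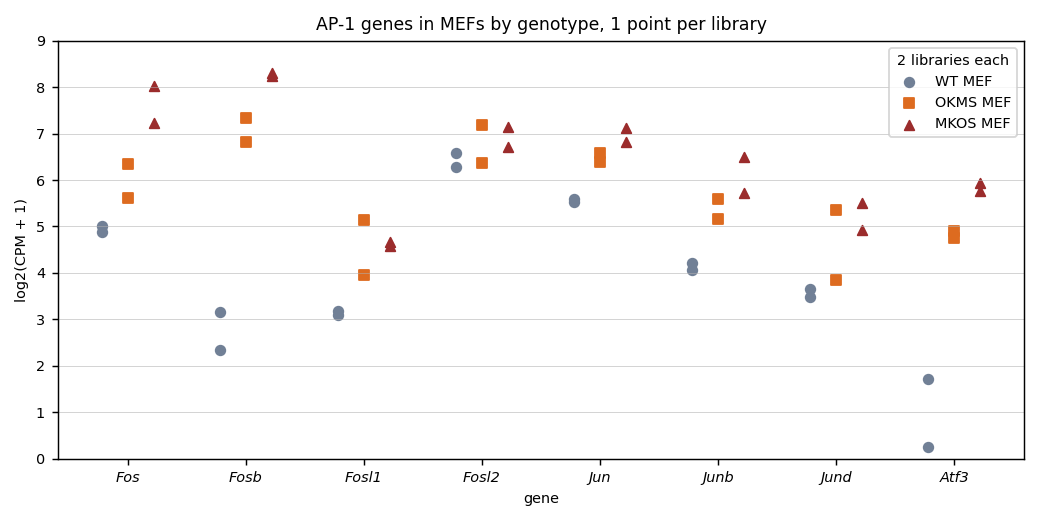
Levels of the AP-1 genes in the 6 MEF libraries, as log2(CPM + 1) by gene, with circles for WT, squares for OKMS, and triangles for MKOS MEFs. *Fosb* and *Atf3* of the WT MEFs lie farthest below the cassette MEFs, and *Fosl2* overlaps between the genotypes.

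Some other immediate early genes were also higher in cassette MEFs. Of 20 such genes that are not AP-1 subunits, 3 were higher in cassette MEFs, where 0.250% of all genes were, and 0 were lower. Their median difference was 1.57. DESeq2's Wald test called 8, and 15 had an unadjusted p under 0.05. *Klf10*, a TGF-beta response gene, rose by 3.16 ± 0.45 (adjusted p = 3.91e-05) and the orphan receptor gene *Nr4a1* by 3.16 ± 0.64 (adjusted p = 0.00514). *Nr4a1* stood at 10.8 to 16.1 CPM in WT, 143 to 147 in MKOS, and 93.5 to 116 in OKMS MEFs. Of 25 reported AP-1 target genes only *Hbegf*, which encodes an EGF receptor ligand, was higher (3.05 ± 0.51, adjusted p = 0.000464), and the median was 0.37. Of 20 tested genes of other bZIP partners and 21 of upstream kinases and factors, edgeR called 0 and 0 (medians 0.20 and 0.08), DESeq2's Wald test called 1 and 0, and 2 of each had an unadjusted p under 0.05. The summed leukocyte and macrophage markers were lower in the cassette MEF libraries, as given above, although edgeR and DESeq2 called 0 of the 5 and 3 had an unadjusted p under 0.05. The summed level of fibroblast markers was 3899 to 4860 CPM in WT and 3336 to 5738 in cassette MEFs. The part of culture, passage, or cell composition in the difference between genotypes was not tested.

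The next comparison asks how AP-1 changed from the MEFs of a cassette to its first CD44- population. In MKOS E-CAD+ 2NG- cells, 5 of the 8 genes had fallen, where 12.0% of genes had. *Fosb* fell by 4.05 ± 0.70 on the log2 scale (adjusted p = 2.5e-05), *Fosl2* by 3.81 ± 0.88 (adjusted p = 0.000918), *Junb* by 3.27 ± 0.62 (adjusted p = 8.5e-05), *Jun* by 2.30 ± 0.56 (adjusted p = 0.00164), and *Atf3* by 4.33 ± 1.19 (adjusted p = 0.00527). The difference was -3.05 ± 1.25 for *Fosl1* (adjusted p = 0.0662), -1.04 ± 0.62 for *Fos* (adjusted p = 0.218), and -0.70 ± 0.49 for *Jund* (adjusted p = 0.301). In OKMS E-CAD- 2NG- cells, *Fosb*, *Fosl1*, *Fosl2*, *Jun*, *Junb*, and *Atf3* fell, 6 of the 8 genes, where 10.1% of genes did. Their log2 changes ranged from -3.97 ± 0.90 (*Fosl2*, adjusted p = 0.001) to -2.07 ± 0.56 (*Jun*, adjusted p = 0.0057). The call of *Atf3* was lost when any of the 5 libraries was left out (adjusted p 0.053 to 0.0812), and that of *Fosl1* without OKMS E-CAD- 2NG- replicate 2 or 3 or OKMS MEF replicate 2 (adjusted p 0.0654 to 0.143). In OKMS E-CAD+ 2NG- cells 5 genes fell, where 13.5% of genes did, with *Fosl2* at -4.82 ± 0.94 (adjusted p = 0.00011), *Fosb* at -3.86 ± 0.71 (adjusted p = 5.46e-05), *Atf3* at -4.00 ± 1.19 (adjusted p = 0.00926), *Junb* at -3.26 ± 0.63 (adjusted p = 0.000101), and *Jun* at -1.60 ± 0.56 (adjusted p = 0.0267). The *Jun* call was lost without OKMS E-CAD+ 2NG- replicate 1 or 3 or without either OKMS MEF library (adjusted p 0.0561 to 0.0987). *Fos* passed in none of the 3 populations, with -0.69 ± 0.64 in OKMS E-CAD- and -0.42 ± 0.64 in OKMS E-CAD+ cells.

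These falls depended on which MEFs were the baseline. Against WT MEFs, the only gene called in MKOS 2NG- cells was *Fosl2* (-3.32 ± 0.86, adjusted p = 0.00404), where 9.56% of genes were lower. *Fosl2* was also the only gene called in OKMS E-CAD- 2NG- cells (-3.66 ± 0.89, adjusted p = 0.00306), where 7.49% of genes were lower. In OKMS E-CAD+ 2NG- cells *Fosl2* (-4.51 ± 0.93, adjusted p = 0.000304) and *Junb* (-2.04 ± 0.62, adjusted p = 0.0134) were called, where 11.2% of genes were lower. The fall of *Fosl2* thus held with either baseline and in all 3 populations. *Fos*, *Fosb*, *Jund*, and *Atf3* changed sign, and in MKOS cells they stood 1.76 ± 0.68 (adjusted p = 0.0592), 1.65 ± 0.75 (adjusted p = 0.111), 1.03 ± 0.52 (adjusted p = 0.154), and 1.12 ± 1.21 (adjusted p = 0.554) above WT MEFs. *Jun* kept its direction, at -0.88 ± 0.56 in MKOS (adjusted p = 0.265), -1.20 ± 0.56 in OKMS E-CAD- (adjusted p = 0.143), and -0.72 ± 0.56 in OKMS E-CAD+ cells (adjusted p = 0.37). The sorted cells grew in cultures of cassette MEFs mixed with WT MEFs, and the summed fibroblast markers were 86.4 to 1052 CPM in the NG- populations.

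**Figure D3:**
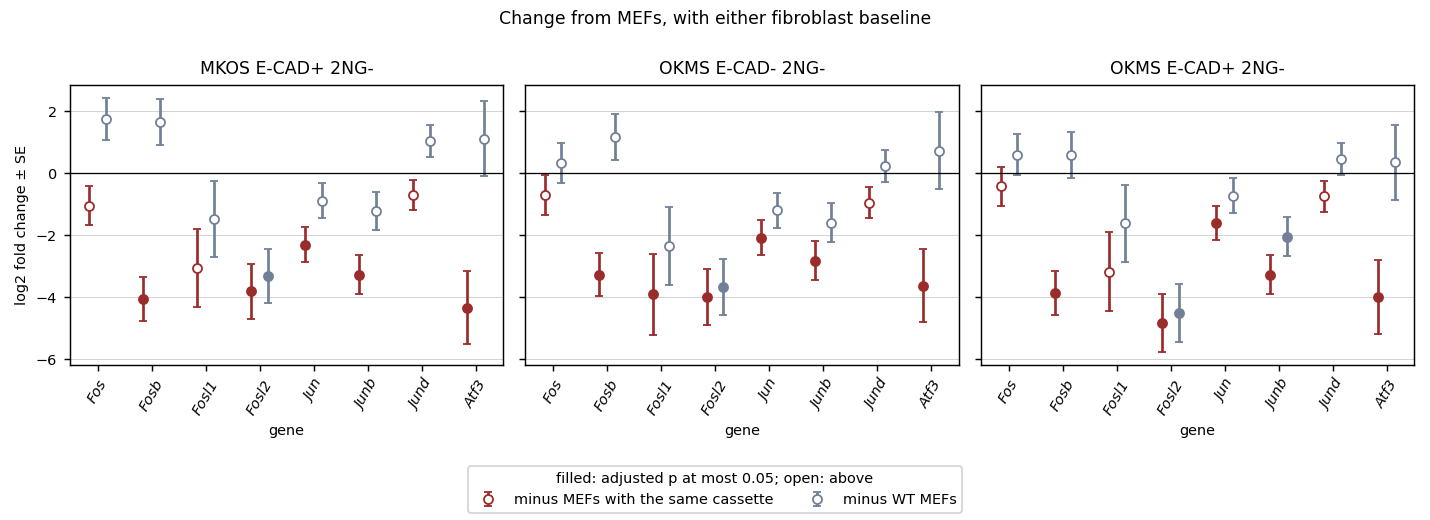
Log2 fold changes (± SE) of the AP-1 genes from MEFs to the 2NG- population of each route, against MEFs with the same cassette (red) and against WT MEFs (gray), with filled points for an adjusted p of at most 0.05. Only *Fosl2* is filled for both baselines in all 3 panels, and *Fos*, *Fosb*, *Jund*, and *Atf3* lie below 0 against cassette MEFs and above 0 against WT MEFs.

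Genes of the other lists were lower in 2NG- cells than in cassette MEFs too. Over all genes tested, 12.0% were lower in MKOS, 10.1% in OKMS E-CAD-, and 13.5% in OKMS E-CAD+ cells. Of the 20 immediate early genes 16 fell in MKOS, 15 in OKMS E-CAD-, and 12 in OKMS E-CAD+ cells, where 1 rose, with medians of -2.19, -2.45, and -2.12. Summed, these genes held 1482 to 2972 CPM in cassette MEFs but 757 to 998 in WT MEFs. The NG- cells of both gates held 562 to 844 in MKOS, 381 to 609 in OKMS E-CAD-, and 394 to 706 in OKMS E-CAD+ populations. Calls of the lists against WT MEFs were not counted. Of the 25 reported AP-1 targets 13, 15, and 16 fell and 0 rose, with medians of -2.07, -2.78, and -3.51. The partners had 9, 6, and 7 of 20 genes lower and 0 higher. The kinases and upstream factors were divided in MKOS cells, with 2 of 21 higher and 2 lower, the latter *Elk3* (-2.48), a partner of SRF, and *Srf* itself (-1.78 ± 0.45, adjusted p = 0.00227). Between ESCs and MEFs, 4755 of all 15630 genes tested were lower in ESCs and 4634 higher. Of the 25 targets 23 were lower in ESCs and 0 higher, led by the chemokine gene *Ccl2* (-13.12) and the matrix protease gene *Mmp3* (-12.11). Of the immediate early genes 16 were lower in ESCs and 3 higher, led by the zinc finger genes *Egr2* (-7.39) and *Egr1* (-5.60 ± 0.40). Of the partners 13 were lower and 3 higher, led by *Maf* (-9.06 ± 1.24), which is high in macrophages. The kinases and upstream factors had 7 of 21 lower and 5 higher, with a median of -0.05 against 0 over all genes. The largest changes were those of *Elk3* (-4.61 ± 0.43) and *Elk4* (-2.54 ± 0.78).

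Between E-CAD+ and E-CAD- cells of OKMS, taken over both NG- gates, 0 of the 8 genes passed the test, where 7.08% of genes did. DESeq2's Wald test called 0 as well, 0 had an unadjusted p under 0.05, and the fitted differences lay between -0.55 (*Fosb*) and 0.41 (*Atf3*). The epithelial markers differed between these cells, at 77.3 to 229 CPM summed in OKMS E-CAD- libraries and 717 to 1379 in the E-CAD+ NG- libraries of both cassettes. Among the lists, 3 of the 20 immediate early genes were higher in E-CAD+ cells, led by *Klf2* (1.65 ± 0.32) and *Klf6* (0.92 ± 0.21), and *Rps6ka1*, a kinase gene downstream of ERK, was the only one of the 21 upstream genes called (1.02 ± 0.22, adjusted p = 0.00205). Of the 25 targets 4 were lower, led by the collagenase gene *Mmp13* (-3.16), and 1 higher, the urokinase receptor gene *Plaur* (2.20), whereas 0 of 20 partners were called by edgeR or DESeq2 and 3 had an unadjusted p under 0.05. Fibroblast markers moved with the targets that were lower, since 9 of 12 were lower in E-CAD+ cells (median -1.65), with summed levels of 86.4 to 314 CPM against 590 to 970 in E-CAD- cells, and their part was not tested.

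Between the cassettes, in E-CAD+ NG- cells, 0 of the 8 genes passed either, where 11.9% of genes did, DESeq2's Wald test called 0, and 1 gene, *Jun*, had an unadjusted p under 0.05. The difference of MKOS minus OKMS was -0.80 ± 0.36 for *Jun* (adjusted p = 0.146), which passed when only the libraries compared were fitted (adjusted p = 0.0161), and *Fosl1* differed by 0.98 ± 0.83. Of the 25 reported targets 9 were higher in MKOS cells and 0 lower (median 0.73), among them *Mmp13* (2.94). Markers of other cells were higher in MKOS cells as well, with 6 of 12 fibroblast markers called and 0 lower (median 1.501, summed level 421 to 1052 CPM against 86.4 to 314) and 2 of 5 leukocyte and macrophage markers called (summed level 151 to 1931 against 23.8 to 380). Their part in the target values was not tested. The matricellular gene *Ctgf* (2.03 ± 0.37) was the only immediate early gene and *Ddit3*, a stress-induced partner (1.23 ± 0.41, adjusted p = 0.043), the only partner called. Of the upstream genes 3 were higher, led by *Elk3* (1.33) and *Rps6ka1* (1.02). The change from cassette MEFs to E-CAD+ NG- cells differed between the cassettes for 0 of the 8 genes, where 1.43% of genes differed, with the lowest adjusted p for *Jun* (1.34 ± 0.71, adjusted p = 0.42), and DESeq2's Wald test called 0 and an unadjusted p under 0.05 was reached by 0. The regain of ICAM1, compared as 3NG- minus 2NG- over E-CAD+ cells of both cassettes, moved 0 of the 8 genes past the test, where 0.333% of genes passed, and the fitted differences lay between -0.65 and 0.81, with 0 genes called by DESeq2's Wald test and 0 at an unadjusted p under 0.05.

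Even so, NG- cells were far from ESCs in AP-1. With the 4 E-CAD+ NG- populations averaged, a comparison added after the levels had been seen, all 8 genes were higher than in ESCs, where 21.8% of genes were, and the median difference was 3.61 against 0.04 over all genes. *Fos* was higher by 3.88 ± 0.39 (adjusted p = 1.52e-10), *Jun* by 3.43 ± 0.35 (adjusted p = 2.03e-10), *Fosl2* by 3.79 ± 0.61 (adjusted p = 3.35e-06), and *Junb* by 1.06 ± 0.33 (adjusted p = 0.00894). For *Fosb*, *Fosl1*, and *Atf3* the ratios of mean CPM were 37.3, 9.81, and 3.80, and all of them passed the test. *Jund* was higher by 0.70 ± 0.26 (adjusted p = 0.028), a call that was lost without any of 7 of the 20 libraries, 5 of them ESCs (E14 replicates 1 and 2, TNG replicate 1, TNG MKOS replicate 1, and TNG OKMS replicate 2) and the others MKOS 2NG- replicate 2 and OKMS E-CAD+ 3NG- replicate 1 (adjusted p 0.05 to 0.139). Of the reported targets 15 of 25 were higher in NG- cells and 0 lower, and of the immediate early genes 8 of 20 were higher and 3 lower. Fibroblast markers were higher in NG- cells as well (10 of 12 called, median 4.10, 0 lower). So were leukocyte and macrophage markers (4 of 5 called, median 5.92, 0 lower). The part of these markers' cells in the AP-1 differences was not tested.

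The gain of *Nanog*-GFP marks the last sorted step. Averaged over both cassettes, a comparison added after each cassette had been seen, 4 of the 8 genes were lower in 3NG+ than in E-CAD+ 3NG- cells, where 7.56% of genes were. *Jun* fell by 1.81 ± 0.40 on the log2 scale (adjusted p = 0.00168), *Fosb* by 2.08 ± 0.49 (adjusted p = 0.00335), *Fos* by 1.48 ± 0.42 (adjusted p = 0.0141), and *Fosl2* by 2.38 ± 0.72 (adjusted p = 0.0223). The differences of the other genes were also below 0, with *Fosl1* at -2.81 ± 1.07 (adjusted p = 0.0754), *Atf3* at -1.85 ± 0.85 (adjusted p = 0.145), *Jund* at -0.76 ± 0.33 (adjusted p = 0.123), and *Junb* at -0.84 ± 0.41 (adjusted p = 0.181). In this step the 3NG+ libraries of *Fos*, *Fosb*, and *Jun* lay below all 3NG- libraries of the same cassette. The call of *Fosl2* was lost without replicate 1 of MKOS 3NG-, OKMS 3NG-, or OKMS 3NG+ cells, without MKOS 3NG+ replicate 2 or 3, or without OKMS 3NG+ replicate 3 (adjusted p 0.0548 to 0.0834), whereas those of *Fos*, *Fosb*, and *Jun* held in each of the 12 fits that left out a library.

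Within MKOS alone, 0 of the 8 genes passed the quasi-likelihood test, where 1.58% of genes did, although 3 had an unadjusted p under 0.05. *Fosb* differed by -2.41 ± 0.68 (adjusted p = 0.0576), *Fos* by -1.63 ± 0.59 (adjusted p = 0.151), and *Jun* by -1.52 ± 0.56 (adjusted p = 0.157), and DESeq2's Wald test called 1 gene, *Fosb* (adjusted p = 0.0303). Within OKMS, *Jun* (-2.11 ± 0.57, adjusted p = 0.0184) and *Fosl2* (-4.42 ± 1.15, adjusted p = 0.0148) were called, 2 of the 8 genes, where 3.21% of genes were lower. Both calls were lost without OKMS 3NG+ replicate 1 or 3, that of *Fosl2* also without OKMS 3NG- replicate 1 (adjusted p = 0.0989), and that of *Jun* without OKMS 3NG- replicate 2 (adjusted p = 0.111). The step did not differ detectably between the cassettes, since 0 of the 8 genes passed that test, where 0.0256% of genes did, and *Fosl2*, the only gene with an unadjusted p under 0.05, was the farthest from 0 (-4.09 ± 1.45, adjusted p = 0.431). DESeq2's Wald test called 0 here too. Between MKOS and OKMS 3NG+ cells 0 of the 8 genes passed the test or DESeq2's Wald test, where 0.685% of genes passed and 2 of the 8 had an unadjusted p under 0.05, with *Fosl2* at 3.10 ± 1.20 (adjusted p = 0.26), and MKOS 3NG+ replicate 1 alone held 9.04 CPM of it. The summed pluripotency markers were 11800 to 16781 CPM in 3NG+ cells, against 2242 to 9997 in MKOS and 822 to 5745 in OKMS E-CAD+ NG- cells. With the gain of *Nanog*-GFP averaged over both cassettes, 6 of the 20 immediate early genes were lower and 1 higher, where 7.56% of all genes were lower. The antiproliferative gene *Btg2* (-1.98) changed most. Of the reported targets 6 of 25 were lower and 1 higher.

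**Figure D4:**
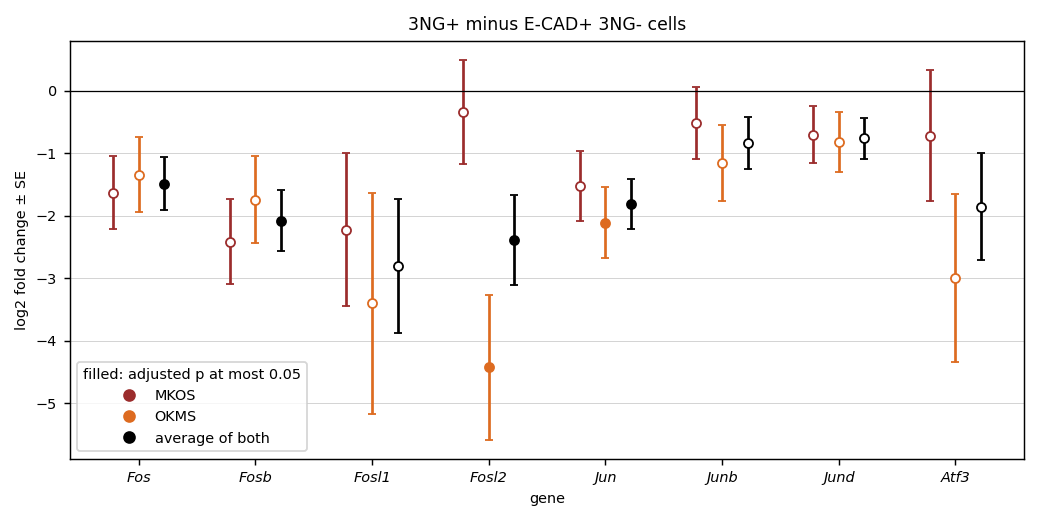
Log2 fold changes (± SE) of the AP-1 genes between 3NG+ and E-CAD+ 3NG- cells for MKOS, OKMS, and the average of both, with filled points for an adjusted p of at most 0.05. All 24 points lie below 0, and the average is filled for *Fos*, *Fosb*, *Fosl2*, and *Jun*.

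The 3NG+ cells were then compared with iPSC clones of their cassette without doxycycline. In MKOS 0 of the 8 genes passed the test, where 2.14% of genes did and 4 of the 8 had an unadjusted p under 0.05, with *Fos* the nearest, at 2.47 ± 0.75 higher in 3NG+ cells (adjusted p = 0.0737). All 3 MKOS 3NG+ libraries of *Fos* (11.7 to 33.3 CPM) were above both iPSC libraries (7.47 and 1.24). Other iPSCs reached into this range, at 28.8 and 15.0 CPM in D6 and 22.9 and 7.92 in MKOS clones in 2i medium. The difference from MKOS iPSCs without doxycycline passed in DESeq2's Wald test (adjusted p = 0.0397). In OKMS 0 passed there or in DESeq2's Wald test, where 0.614% of genes did and 2 of the 8 had an unadjusted p under 0.05, and *Fos* differed by 1.77 ± 0.74 (adjusted p = 0.326), with 20.3 to 34.3 CPM against 10.3 and 4.28. *Fosl1* had 13 reads in the MKOS 3NG+ libraries and 0 in the MKOS iPSCs. Markers of other cells were higher in 3NG+ cells too. In MKOS 7 of 12 fibroblast markers were called (median 3.44, summed level 105 to 655 CPM against 12.0 to 12.8 in iPSCs) and 2 of 5 leukocyte and macrophage markers (67.7 to 914 against 10.4 to 23.8). In OKMS 5 of the 12 fibroblast markers were called (median 2.89, summed level 150 to 316 against 11.4 to 34.6), whereas edgeR called 0 of the 5 leukocyte and macrophage markers, DESeq2 called 2, and 2 had an unadjusted p under 0.05. Their part in the *Fos* values was not tested.

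Inhibition of MEK in 2i medium blocks the ERK pathway, a main inducer of *Fos* and its relatives. Between iPSCs in 2i medium and without doxycycline, averaged over both cassettes, 0 of the 8 genes passed the test, where 4.34% of genes did and 2 of the 8 had an unadjusted p under 0.05. *Junb* came closest, at -2.02 ± 0.63 (adjusted p = 0.058), with 12 reads in 4 libraries in 2i medium and 65 in 4 libraries without doxycycline, and it passed without OKMS iPSC replicate 2 of the latter (adjusted p = 0.0304) and in DESeq2's Wald test (adjusted p = 0.0326). *Fos* ranged from 0.527 to 22.9 CPM in 2i medium and from 1.24 to 10.3 without doxycycline, so that no direction was visible. *Fosl1* had 0 reads in 2i medium and 14 without doxycycline, all from the OKMS clones. *Atf3* differed by 2.33 ± 1.09 (adjusted p = 0.251), and most of its reads in 2i medium came from MKOS replicate 1, at 7.35 CPM. Of the 20 immediate early genes 5 were lower in 2i medium and 0 higher, led by the ERK feedback genes *Spry4* (-9.06 ± 0.75) and *Dusp6* (-3.64 ± 0.34). Of the targets *Plaur* was lower (-2.63) and the chromatin gene *Hmga2* higher (1.74), of the partners *Nfe2l1* was higher (0.63 ± 0.19, adjusted p = 0.0398), and 0 of the 21 upstream genes were called, against 1 in DESeq2's Wald test and 4 at an unadjusted p under 0.05.

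The AP-1 genes were not interchangeable across conditions. Over the 20 condition means of log2(CPM + 1), which share libraries and therefore depth and composition, Pearson's r was highest for *Fosl1* and *Fosl2* (0.94) and for *Junb* and *Fosl2* (0.92), and lowest for *Fos* and *Jund* (0.55). Over the 17 conditions without MEFs, *Fos* and *Fosb* were the most alike (0.96), *Fosl1* and *Fosl2* stood at 0.78, and *Junb* and *Atf3* were the least alike (0.34). The order of likeness thus depended on the 3 kinds of MEFs. Among all genes tested, the pattern most like that of *Fos* over the 20 conditions was shown by *Anxa8* (0.907), *Egr1* (0.904), and *Fosb* (0.899), and that most like *Fosb* by *Hes1* (0.930), *Upk1b* (0.924), and *Trib1* (0.923). Those nearest to *Fosl1* were *Dusp18* (0.969), *Nrn1* (0.968), and *Tnfaip2* (0.961), and those nearest to *Fosl2* were *6330406I15Rik* (0.986), *Kctd10* (0.985), and *2610203C20Rik* (0.979). For *Jun* they were *Commd3* (0.968), *Parva* (0.964), and *Cyr61* (0.955), for *Junb* *Srf* (0.956), *Cebpb* (0.947), and *Ghr* (0.946), for *Jund* *Herpud2* (0.851), *Adipor1* (0.841), and *Sirt2* (0.840), and for *Atf3* *Nr4a1* (0.941), *C3* (0.941), and *Itpkc* (0.927). *Jund*, the gene that differed least, also had the lowest of these values.

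**Figure D5:**
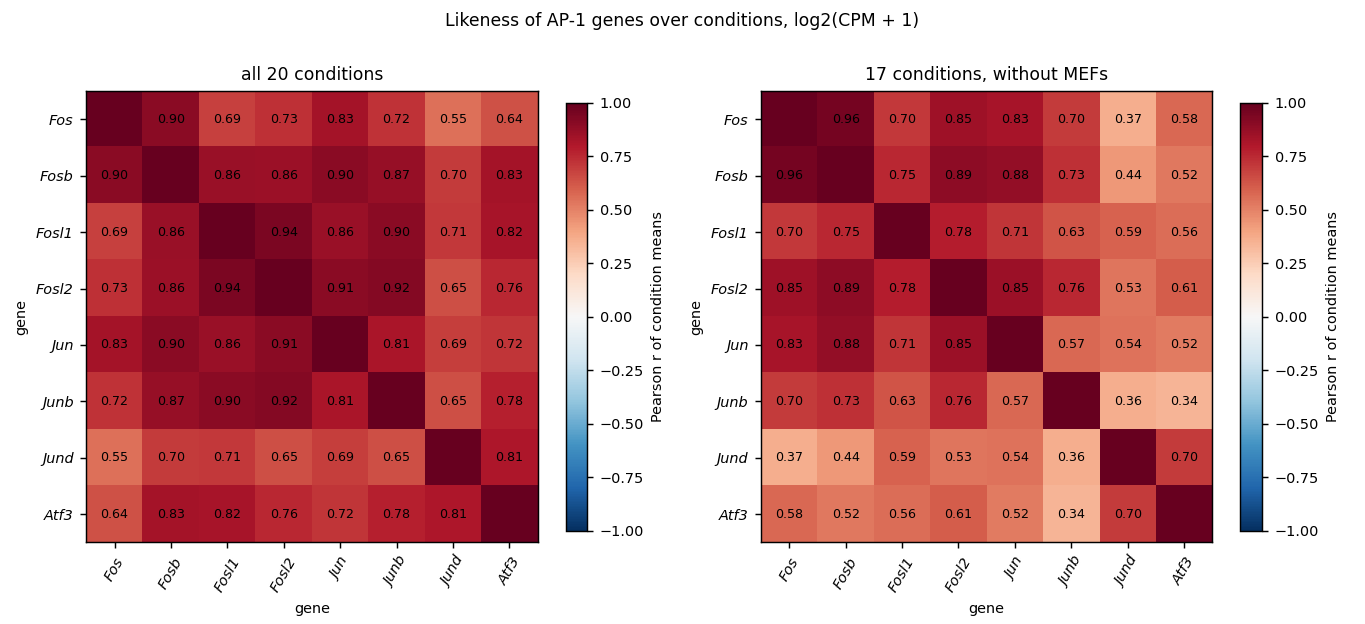
Pearson's r between condition means of log2(CPM + 1) for each pair of AP-1 genes, over all 20 conditions (left) and over the 17 without MEFs (right), on a color scale from -1 to 1. *Fos* and *Fosb* are alike in both panels (0.90 and 0.96). Without MEFs, *Jund* and *Atf3* have r of at most 0.61 with the other genes and 0.70 with each other.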

How the data were processed

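RNA was extracted from sorted cells and sequenced from transcript 5′ ends with the STRT method. Counts of reads per transcript were deposited by the authors without normalization, made with their STRT pipeline, in which reads with several positions went to the most 5′ exonic one. The submitters' processing notes name Bowtie 0.12.7 and mm10, whereas the methods name mm9. Of 20698 symbols, 83.67% had a deposited position within 200 bases of the RefSeq start in GRCm38.p6. Promoter sequences are from RefSeq. Molecular identifiers are not mentioned in the sources used here, so that the CPM floors set by a fixed number of reads cover counting error only. The SDs and SEs also include the spread between libraries. The 24264 transcripts made up the library size, and 1554 repeat types and 104 spike-in RNAs were left out.

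Conditions were taken from the labels. Counts were fitted with edgeR 4.0.16 in R 4.3.3 (TMM, filterByExpr by condition, quasi-likelihood F test, a coefficient for each of the 20 conditions, all 48 libraries, common dispersion 0.217), and genes with a Benjamini-Hochberg adjusted p of at most 0.05 over all 15630 genes were called. SEs are the log2 fold change divided by the root of F. Named were all 8 AP-1 genes in every comparison, the 3 genes most like each in Pearson's r, and the 2 called genes of each list with the largest change, some of which are not reported here. The members and lists were chosen with earlier results of these data known. The rule for lists covered ESCs against MEFs, MKOS against OKMS NG- cells, OKMS E-CAD+ against E-CAD- cells, and 2i medium. The comparison of cassette with WT MEFs is not in it, so *Hbegf*, *Nr4a1*, and *Klf10* were named there after their values were seen. List counts in other comparisons are outside the rule too, as are *Elk3* and *Srf* in MKOS 2NG- cells and *Btg2* in the *Nanog*-GFP step. Alternatives were DESeq2 1.42.0, its size factors, no filter, the compared libraries alone, the replicate number as a block, single gates or cassettes, and fits without single libraries or without 7 sorted libraries that the study's averages do not include. Other MEF baselines and 4 comparisons were added after the data were seen. The test was tried on simulated counts. Tables were made with pandas 2.3.3 and NumPy 2.4.6 in Python 3.11.15, and plots with Matplotlib 3.10.9.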

Additional observations from a re-analysis of the deposited data

How the results depend on the processing

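Values are log2 fold changes, and counts are of the 8 AP-1 genes called. All 8 genes stayed lower in ESCs than in MEFs and higher in E-CAD+ NG- cells than in ESCs under DESeq2 (its Wald test, or its size factors in edgeR), no filter, the libraries compared alone, the replicate block, and without the 7 libraries outside the study's averages. DESeq2's size factors changed no count by over 1.5 times. The cause of the changed calls was not tested.

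With WT MEFs in place of the cassette MEFs, 1 gene was called in MKOS 2NG-, 1 in OKMS E-CAD- 2NG-, and 2 in OKMS E-CAD+ 2NG- cells, and *Fos* reversed to 1.76, 0.33, and 0.60, *Fosb* to 1.65, 1.18, and 0.59, *Jund* to 1.03, 0.25, and 0.45, and *Atf3* to 1.12, 0.73, and 0.35. Without a filter 19768 genes were tested, and the count of all genes called, given in parentheses, rose in each of these comparisons. Called were 3 AP-1 genes between MKOS 3NG+ and 3NG- cells (887) and 5 between the same OKMS cells (1453). Between MKOS and OKMS 2 were called in NG- cells (2186) and 1 in 3NG+ cells (484). Between 3NG+ cells and iPSCs 2 were called for MKOS (799) and 1 for OKMS (384). For 2i medium 1 was called (1025), and 1 for the cassettes' difference in the *Nanog*-GFP step (163). Between cassette and WT MEFs 3 were called (269), and 1 between MKOS and OKMS MEFs (174). With only the libraries compared, 1 AP-1 gene was called between MKOS and OKMS NG- cells (1938 of all 12930 genes). In the MKOS *Nanog*-GFP step it was 1 (545 of 11929). For cassette and WT MEFs 7 were called (374 of 12567), and for MKOS and OKMS MEFs 2 (360 of 12078). Without the 7 libraries 15432 genes were tested. There 1 AP-1 gene was called in the MKOS *Nanog*-GFP step (559 of all genes), 1 between MKOS 3NG+ cells and iPSCs (585), and 2 between cassette and WT MEFs (172). DESeq2's Wald test called 1 AP-1 gene in the MKOS *Nanog*-GFP step (609 of all 12901 genes) and 1 between MKOS 3NG+ cells and iPSCs (567 of 13204). It called 1 for 2i medium (986 of 13507) and 2 between cassette and WT MEFs (191 of 11689).

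The labels do not say that a replicate number marks a shared experiment, and not every pair of libraries with the same number deviated together, so the numbers were not taken as pairs. Over 84 pairs of sorted libraries with the same number, the correlation of deviations from the condition means averaged 0.081 (-0.041 to 0.352), and 23 pairs exceeded 0.1. With the replicate number as a block, *Fosb* was called in the MKOS *Nanog*-GFP step, 1 gene instead of 0, where 417 of all 15630 genes were called. *Fosl1* was no longer called in OKMS E-CAD- 2NG- cells (-3.23, adjusted p = 0.0775) but was in OKMS E-CAD+ 2NG- cells (-3.13, adjusted p = 0.049).

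Reversed signs outside the MEF comparisons concerned values that passed no test. Between OKMS E-CAD+ and E-CAD- cells they were *Fosl1* (0.73) and *Atf3* (-0.38) in the 2NG- gate, *Fos* (-0.15) and *Fosl2* (0.16) in the 3NG- gate, and *Fosb* (0.55), *Fosl1* (0.30), and *Atf3* (-0.25) without the 7 libraries. Between MKOS and OKMS they were *Fosl2* (-0.99) and *Junb* (-0.53) in the 3NG- gate and, in 3NG+ cells without the 7 libraries, *Fos* (0.061). For ICAM1 they were *Fos* (-0.35), *Fosb* (-0.14), *Fosl1* (0.18), *Fosl2* (-0.80), and *Junb* (-0.21) in MKOS alone and *Jun* (0.18) in OKMS alone. For 2i medium they were *Fosb* (0.38) and *Fosl2* (1.63) in MKOS and *Fos* (-0.19) and *Jun* (-0.38) in OKMS clones, and for the difference of the change from MEFs between cassettes, *Atf3* (-0.52) without the 7 libraries.

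When single libraries were left out, 0 to 2 genes were called in the OKMS *Nanog*-GFP step, 0 to 1 between cassette and WT MEFs, and 0 to 1 for 2i medium. These fits kept the dispersions of all libraries, and a lone library left in a condition was assumed to vary like the others. Values that changed sign in some of these fits ranged as follows. In OKMS E-CAD+ 2NG- cells against MEFs, *Jund* ranged from -1.26 to 0.072. Between OKMS E-CAD+ and E-CAD- cells, *Fos* ranged from -0.13 to 0.50, *Fosb* from -0.74 to 0.025, *Fosl1* from -0.92 to 0.35, *Fosl2* from -0.71 to 0.08, and *Atf3* from -0.29 to 1.47. Between MKOS and OKMS NG- cells *Fosl2* ranged from -0.23 to 0.47, and between their 3NG+ cells *Fos* from -0.46 to 0.19, *Fosb* from -1.16 to 0.059, and *Junb* from -0.25 to 0.36. For ICAM1 *Fos* ranged from -0.012 to 0.30 and *Fosl2* from -0.077 to 0.57, and in the MKOS *Nanog*-GFP step *Fosl2* from -1.55 to 0.30. Between 3NG+ cells and iPSCs *Jun* ranged from -0.10 to 1.05 in MKOS, and *Fosl2* from -3.07 to 4.68, *Jun* from -1.02 to 1.92, and *Atf3* from -1.75 to 4.34 in OKMS. For 2i medium *Fos* ranged from -1.10 to 1.66, *Fosb* from -3.67 to 0.66, *Fosl2* from -3.68 to 2.82, *Jun* from -0.044 to 1.57, and *Jund* from -0.24 to 0.71. For the cassettes' difference in the change from MEFs *Fosl2* ranged from -0.28 to 0.44, *Jund* from -0.47 to 0.92, and *Atf3* from -0.38 to 0.70, and for that in the *Nanog*-GFP step *Fos* from -0.032 to 0.60, *Fosl1* from -3.49 to 0.50, and *Jund* from -0.76 to 0.21. Between MKOS and OKMS MEFs *Fosl1* ranged from -0.39 to 0.65 and *Fosl2* from -0.10 to 0.53.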
